A study of Mus musculus with 6 samples.

Results

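The Schwann cell myelin genes described here are 8 genes, *Pmp22*, *Mbp*, *Prx*, *Mag*, *Ncmap*, *Pmp2*, *Drp2* and *Gldn*, taken by symbol from the 27179 genes listed in the count tables. Their transcripts were measured by RNA-seq in whole quadriceps muscle of mice, in 3 control libraries (replicates B, C and D) and 3 miDrp1KO libraries (replicates A, E and F). Control mice (Control f/f in the labels, while the methods also allow flox/+) carried floxed alleles of *Dnm1l*, the gene of the mitochondrial fission protein Drp1. miDrp1KO mice carried the floxed alleles together with HSA-MerCreMer, a Cre recombinase that tamoxifen activates and that the human skeletal actin promoter drives in muscle fibres rather than in Schwann cells. All mice were on a C57BL/6J background and ate normal chow, and per the methods of the study mice of both genotypes were given tamoxifen on 4 days (50 mg/kg each day) at an age of 3 months, with the muscle taken 3 weeks later. The methods say that mice of both sexes were examined first and that males were used afterwards. They do not give the sex of the mouse behind each library. The differing numbers in the sample titles mark the libraries as separate mice. A supplementary figure legend of the study, on transcripts of quadriceps muscle, also counts its groups in mice. In tissue RNA, fewer cells of a type and less RNA per cell cannot be told apart.

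Myelinating Schwann cells wrap single axons of peripheral nerve in many layers of membrane, and in a muscle they lie along the motor and sensory axons of the nerve branches up to the last stretch before the muscle fibre. Compact myelin is held together by a few abundant membrane and lipid-binding proteins, whereas the non-compact parts hold adhesion and scaffold proteins that face the axon, the node or the basal lamina. The transcription factors SOX10 and EGR2 switch on most of these genes when a Schwann cell starts to myelinate. *Mag* and *Mbp* are also used by oligodendrocytes, the myelin cells of the central nervous system, which muscle lacks.

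The promoters are shown for 4 members whose start sites bear on what a count per gene can tell. Sequences are from RefSeq on GRCm38.p6, the 250 bases before a transcript start, and a window was at hand for 5 of the 8 members, in 11 windows. They were searched on both strands for the SOX cores ACAAAG and ACAATG and for the EGR core GTGGGNG, and matches are in capitals (CACCCAC and CTTTGT are matches on the other strand). *Pmp22* is shown at 2 of its alternative starts, since a count per gene adds up transcripts from both. The first lies at chr11:63128732-63128981 and the second at chr11:63131207-63131456, both on the plus strand. *Prx* at chr7:27499074-27499323 (plus strand) and *Ncmap* at chr4:135398228-135398477 (minus strand) are shown for their EGR core, and *Mag* at chr7:30914923-30915172 (minus strand) for its SOX core.
Pmp22 first start: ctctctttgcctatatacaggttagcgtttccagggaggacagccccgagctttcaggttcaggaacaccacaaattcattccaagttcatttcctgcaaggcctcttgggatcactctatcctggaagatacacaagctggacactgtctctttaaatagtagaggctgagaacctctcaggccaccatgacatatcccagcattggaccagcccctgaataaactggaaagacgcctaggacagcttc
Pmp22 second start: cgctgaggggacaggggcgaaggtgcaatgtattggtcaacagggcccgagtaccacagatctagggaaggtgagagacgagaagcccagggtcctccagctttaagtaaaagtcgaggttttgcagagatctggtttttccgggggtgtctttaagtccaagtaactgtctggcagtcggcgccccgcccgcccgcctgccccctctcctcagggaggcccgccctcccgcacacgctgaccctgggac
Prx: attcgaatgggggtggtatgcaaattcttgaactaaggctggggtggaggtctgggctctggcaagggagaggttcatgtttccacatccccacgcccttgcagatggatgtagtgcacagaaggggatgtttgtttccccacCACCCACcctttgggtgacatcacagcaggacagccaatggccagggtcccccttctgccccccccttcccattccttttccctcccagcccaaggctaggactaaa
Ncmap: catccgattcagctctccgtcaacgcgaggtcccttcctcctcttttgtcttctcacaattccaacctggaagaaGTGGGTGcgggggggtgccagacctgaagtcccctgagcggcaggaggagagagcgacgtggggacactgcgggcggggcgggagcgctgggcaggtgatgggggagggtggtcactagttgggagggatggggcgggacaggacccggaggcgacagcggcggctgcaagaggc
Mag: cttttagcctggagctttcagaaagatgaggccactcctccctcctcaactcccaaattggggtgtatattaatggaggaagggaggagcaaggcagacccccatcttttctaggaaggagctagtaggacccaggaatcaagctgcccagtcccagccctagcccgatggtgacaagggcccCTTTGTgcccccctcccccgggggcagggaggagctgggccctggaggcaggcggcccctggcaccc

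The *Pmp22* windows differ in base composition, with 48.8% G or C and 3 CpG sites before the first start and 61.2% and 14 CpG sites before the second, where the median over all promoter windows was 52.4% and 6 CpG sites. Of the 11 member windows, 4 held a match to any of these motifs. Among them the *Mag* windows at chr7:30914864-30915113 and chr7:30914923-30915172 overlap and share the same SOX core. The first of these *Mag* windows, not shown, also held an EGR core. Among all 32851 windows of the same length 47.3% held one, 28.1% the EGR core, 16.5% ACAAAG and 10.7% ACAATG. A match of these letters is not evidence of binding.

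The 6 libraries held 13989588 to 62042255 counts, with ribosomal RNA genes taking 1.47 to 24.4% of them. Levels are given as CPM, counts scaled to a common library size by TMM, on which 1 count was worth 0.0167 CPM in the deepest library (control D) to 0.0729 CPM in the shallowest (control C). The deleted gene *Dnm1l* stood at 156, 114 and 140 CPM in control B, C, D versus 70.6, 81.3 and 66.2 CPM in miDrp1KO A, E, F, with every miDrp1KO library below every control library (log2 fold change −0.91, SE 0.18, edgeR quasi-likelihood fit with Benjamini-Hochberg adjusted p = 0.362).

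No member passed the test between the genotypes. Of the 8 members, 7 passed the filter on low counts, and 0 of these had an adjusted p under 0.05 from edgeR, where 2 of the 16483 genes tested did (0.0121%). At an unadjusted p under 0.05 the count was again 0 of 7, against 10.9% of all genes tested. DESeq2 and limma voom also gave 0 members with an adjusted p under 0.05. At an unadjusted p under 0.05, DESeq2 gave 0 (10.4% of all genes) and limma voom 1 (12.5%). The log2 fold change (miDrp1KO against control) was above 0 in 6 of the 7 and below 0 in 1, where 52.0% of all genes tested were above 0. Its median over the 7 members was 0.39, and 0.02 over all genes tested. Over the members tested in each case, leaving out 1 replicate moved it to 0.255 without miDrp1KO E, 0.64 without miDrp1KO A and 0.79 without control B. With slow fibre level as a covariate, a fit added after the data were seen, the median was 0.08. All 3 miDrp1KO libraries lay above all 3 control libraries in 1 of the 8 members, *Ncmap*, which did not pass the filter. Among the genes tested this held for 0 of the 7 members and for 7.67% of all genes.

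**Figure D1:**
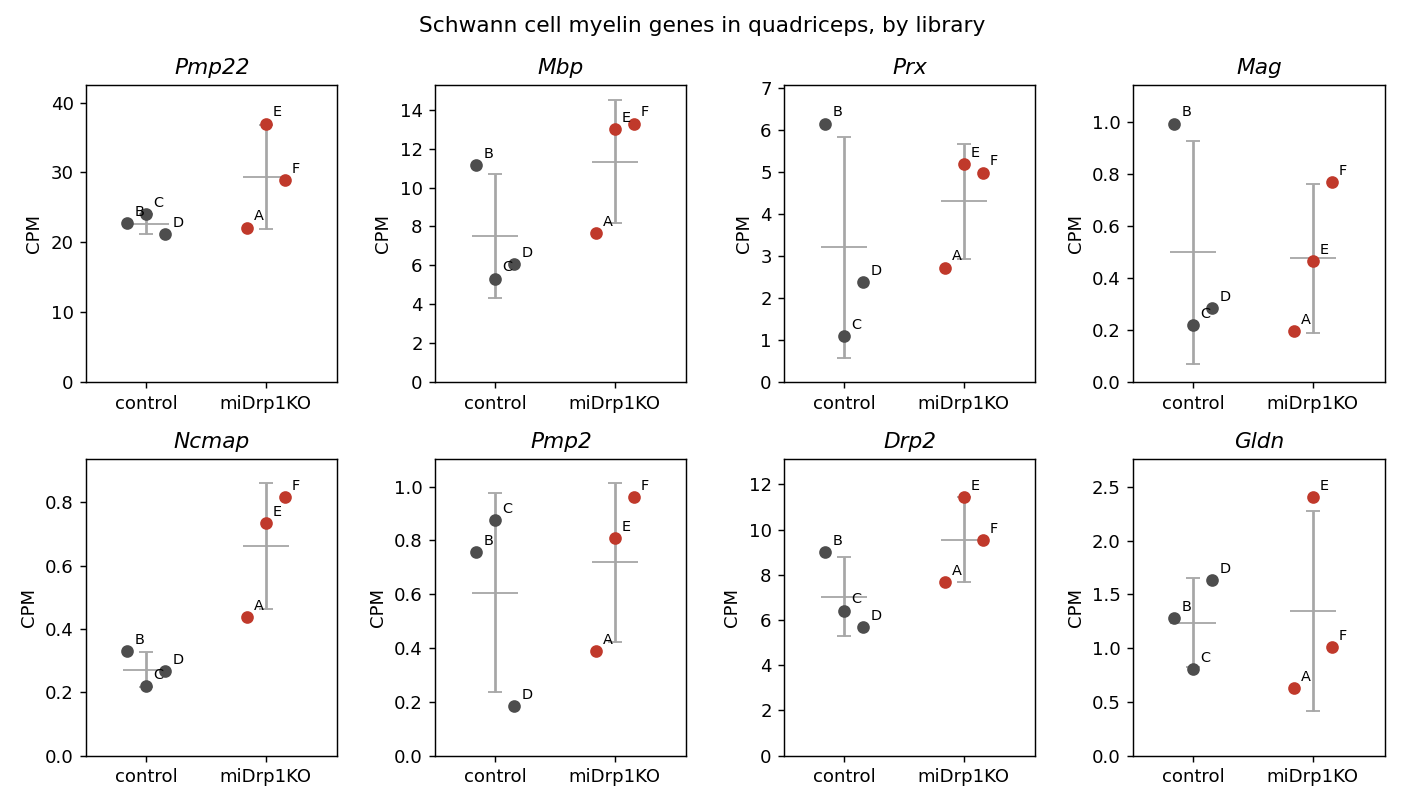
Levels of the 8 members in CPM (vertical axes, from 0) in control and miDrp1KO quadriceps. Each point is 1 library with its replicate letter, and grey bars show the mean and SD of 3 libraries. The groups overlap in every panel but that of *Ncmap*. Control B, miDrp1KO E and miDrp1KO F are the highest libraries for *Mbp*, *Prx* and *Drp2*.

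Levels can be compared between genes only per length of exon. On that scale *Pmp22* was the highest member, with a mean of 11.04 CPM per kb over the 6 libraries. It was followed by *Mbp* at 1.11, *Drp2* at 0.969, *Prx* at 0.673, *Pmp2* at 0.470, *Gldn* at 0.277, *Ncmap* at 0.210 and *Mag* at 0.120 CPM per kb. The lowest library of *Pmp22* (8.99 CPM per kb) was above the highest of *Mbp* (1.57 CPM per kb), so the first place is clear of the spread. From *Mbp* downward, the libraries of each gene overlapped those of the next in the order, and these neighbours do not differ beyond their spread. Lengths are of all annotated exons together, which understates a gene such as *Mbp* that uses only some of them in a given transcript.

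**Figure D2:**
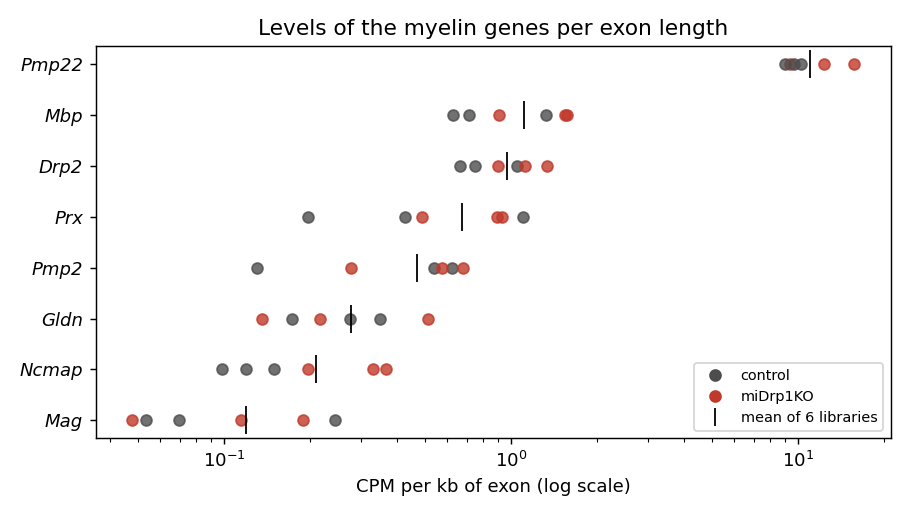
CPM per kb of exon (log scale) for the 8 members. Each point is 1 library, coloured by genotype, and the black tick is the mean of 6 libraries. *Pmp22* lies apart at 8.99 to 15.7 CPM per kb, and every other member overlaps its neighbour.

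The genes of compact myelin come first. *Pmp22* (Entrez 18858, chromosome 11 of GRCm38, 63128982 to 63159547) encodes a tetraspan membrane protein whose gene dosage causes inherited demyelinating neuropathy when altered. Its level was 22.8, 24.0 and 21.2 CPM in control B, C, D versus 22.1, 37.0 and 28.9 CPM in miDrp1KO A, E and F. The controls lay close together, and miDrp1KO E and F were above them while miDrp1KO A was among them. Mean levels were 22.7 ± 1.45 CPM for control and 29.3 ± 7.45 CPM for miDrp1KO muscle (SD, n = 3 each, exact permutation, two-sided, p = 0.3, and 3 libraries against 3 cannot go under 0.1). The log2 fold change was 0.38 (95% interval −0.05 to 0.80, edgeR adjusted p = 0.510). *Pmp22* is also made outside nerve, in fibroblasts among other cells. Leaving out 1 replicate moved it from 0.18 without miDrp1KO E (edgeR unadjusted p = 0.363) to 0.57 without miDrp1KO A (0.00788), and its adjusted p stayed at or above 0.149 in all 16 alternatives.

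*Mbp* (Entrez 17196, 82475091 to 82585637 on chromosome 18) encodes myelin basic protein, which draws the inner faces of the membrane together. Its level was 11.2, 5.32 and 6.06 CPM in control B, C, D versus 7.68, 13.0 and 13.3 CPM in miDrp1KO A, E and F. Control B lay near miDrp1KO E and F, and miDrp1KO A nearer to control C and D. The means were 7.52 ± 3.19 and 11.3 ± 3.16 CPM (SD, n = 3 each, exact permutation, two-sided, p = 0.2). For *Mbp* the log2 fold change was 0.59 (95% interval −0.11 to 1.30, edgeR adjusted p = 0.526). Leaving out 1 replicate moved it from 0.39 without control C (edgeR unadjusted p = 0.234) to 1.01 without control B (0.00321). Annotated coding transcripts of *Mbp* start up to 79.4 kb apart, which holds both the long golli forms, made by other cells too, and the classic myelin forms, and the counts add them up.

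*Pmp2* (Entrez 18857, chromosome 3, 10179851 to 10183885) encodes a fatty acid-binding protein of the cytoplasmic side of compact myelin. Its level was 0.758, 0.875 and 0.183 CPM in control B, C, D versus 0.389, 0.809 and 0.960 CPM in miDrp1KO A, E and F, from 8 to 33 counts a library. Control D and miDrp1KO A were low and the other 4 libraries lay close together, with the genotypes intermixed (exact permutation, two-sided, p = 0.6). The log2 fold change was 0.39 (95% interval −1.02 to 1.80, edgeR adjusted p = 0.857) and ran from −0.14 without control D to 1.04 with limma voom. Its exons share 1224 bases with a second annotated gene on the same strand, so some of these counts may be uncertain.

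The genes of non-compact myelin and of the node follow. *Prx* (Entrez 19153, chromosome 7, 27499305 to 27520041) encodes periaxin, the scaffold that binds the myelinating Schwann cell to its basal lamina. Its level was 6.16, 1.09 and 2.38 CPM in control B, C, D versus 2.72, 5.20 and 4.99 CPM in miDrp1KO A, E and F. The highest and the lowest library were both controls, and they differed 5.63-fold. The means were 3.21 ± 2.63 and 4.30 ± 1.37 CPM (SD, n = 3 each, exact permutation, two-sided, p = 0.6). For *Prx* the log2 fold change was 0.42 (95% interval −0.95 to 1.79, edgeR adjusted p = 0.831). It ran from 0.03 without control C to 1.25 without control B, where the unadjusted p from edgeR was 0.0092 and the adjusted p 0.525. The alternatives that gave *Prx* an adjusted p had 0.525 to 0.982. An antisense gene model overlaps 300 bases of its exons, and the strand setting of the counting is not given in the sources used here.

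*Drp2* (Entrez 13497, chromosome X, 134404124 to 134456574) encodes dystrophin-related protein 2, which links periaxin to the dystroglycan complex of the Schwann cell. It shares no more than its abbreviation with the fission protein Drp1. Its level was 8.996, 6.41 and 5.68 CPM in control B, C, D versus 7.68, 11.4 and 9.55 CPM in miDrp1KO A, E and F. All 3 miDrp1KO libraries were above control C and D, and control B stood between miDrp1KO A and F. The means were 7.03 ± 1.74 and 9.55 ± 1.87 CPM (SD, n = 3 each, exact permutation, two-sided, p = 0.2). For *Drp2* the log2 fold change was 0.45 (95% interval −0.05 to 0.95, edgeR adjusted p = 0.508). Leaving out 1 replicate moved it from 0.30 without miDrp1KO E (edgeR unadjusted p = 0.265) to 0.69 without control B (0.0159).

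*Mag* (Entrez 17136, chromosome 7, 30899175 to 30914922) encodes the adhesion protein that the innermost myelin layer holds against the axon. Its level was 0.994, 0.219 and 0.283 CPM in control B, C, D versus 0.194, 0.466 and 0.768 CPM in miDrp1KO A, E and F. These values rest on 3 to 21 counts a library, and the exact Poisson interval of the 4 counts in miDrp1KO A alone runs from 1.09 to 10.2 counts, for counting error only. *Mag* was the 1 member tested whose log2 fold change was below 0, at −0.05 (95% interval −1.60 to 1.51, edgeR adjusted p = 0.990). That sign depends on control B, the highest library: without it the log2 fold change was 0.88. It was also above 0 without miDrp1KO A (0.32), with limma voom (0.20) and with upper quartile normalization (0.04).

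*Ncmap* (Entrez 230822, chromosome 4, 135369576 to 135398240) encodes a small membrane protein of non-compact peripheral myelin. Its level was 0.331, 0.219 and 0.267 CPM in control B, C, D versus 0.437, 0.735 and 0.816 CPM in miDrp1KO A, E and F. The genotypes did not overlap, with means of 0.272 ± 0.0566 and 0.663 ± 0.199 CPM (SD, n = 3 each, exact permutation, two-sided, p = 0.1, as low as this design goes). The counts behind them were 7, 3 and 16 in control and 9, 30 and 17 in miDrp1KO libraries, too few to pass the filter. With no filter on low counts, edgeR estimated 1.27 on the log2 scale (standard error 0.63, unadjusted p = 0.0528, adjusted p = 0.541). Fitted over all genes with a count, DESeq2 gave 1.26 (Wald test, unadjusted p = 0.0727). The difference therefore fails the correction over genes, and at 3 to 30 counts a library it is not firmly measured.

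*Gldn* (Entrez 235379, chromosome 9, 54286486 to 54341777) encodes gliomedin, which Schwann cells secrete at the node to cluster sodium channels of the axon. Its level was 1.28, 0.802 and 1.63 CPM in control B, C, D versus 0.632, 2.402 and 1.01 CPM in miDrp1KO A, E and F. The miDrp1KO libraries held both the highest and the lowest value. Between the genotypes it differed by 0.12 on the log2 scale (95% interval −0.95 to 1.19, edgeR adjusted p = 0.953). It was below 0 without miDrp1KO E (−0.64), without control C (−0.10) and with limma voom (−0.01). Slow fibre level as a covariate, added after the data were seen, also put *Gldn* below 0 (−0.38).

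**Figure D3:**
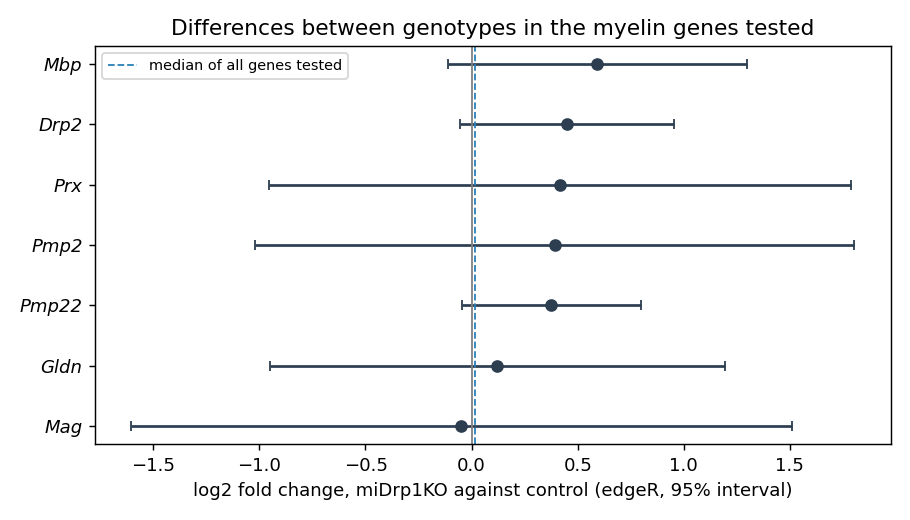
Log2 fold change of miDrp1KO against control (horizontal axis) for the 7 members tested, from edgeR, with bars for the 95% interval. All 7 intervals include 0. The dashed line is the median of all genes tested (0.02).

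The width of these intervals follows the spread between libraries of 1 genotype together with counting error, which weighs more at low counts. *Pmp2*, for instance, had a larger SE (0.64) than *Prx* (0.58). The biological coefficient of variation covers the spread and leaves counting error out. The biological coefficient of variation that edgeR estimated was 0.202 for *Pmp22* and 0.224 for *Drp2*, near the median of 0.227 over all genes tested. It was 0.284 for *Mbp*, 0.407 for *Gldn*, 0.472 for *Pmp2*, 0.492 for *Prx* and 0.501 for *Mag*. Genes of the same abundance as *Prx* had 0.258 on the fitted trend, and those like *Mag* and *Pmp2* had 0.402 and 0.392.

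High values of the members fell mostly in the same libraries, which came from both genotypes. Of the 8 members, miDrp1KO E was among the 3 highest libraries in 8, miDrp1KO F in 7 and control B in 5, whereas control C was in 2, and control D and miDrp1KO A were in 1 each. The 3 highest values thus came mostly from 2 miDrp1KO mice and 1 control mouse. As a description over 6 libraries of the same tissue and differing depth, Pearson's r of log2 CPM was 0.94 for *Mbp* with *Drp2*, 0.93 for *Mbp* with *Prx* and 0.83 for *Prx* with *Mag*. *Pmp22* was less like *Prx* (0.44) and *Mag* (0.31), and *Pmp2* with *Gldn* gave the lowest value, −0.05. Without *Pmp22*, the summed level of the other 7 members was 29.7, 14.9 and 16.5 CPM in control B, C, D versus 19.7, 34.0 and 31.4 CPM in miDrp1KO A, E and F. *Mbp*, *Drp2* and *Prx* made up most of this sum in every library.

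General Schwann cell genes were set beside the members. *Sox10*, the lineage transcription factor, *Erbb3*, the neuregulin receptor, and *Cdh19*, a cadherin of Schwann cells, summed to 10.3, 7.36 and 9.26 CPM in control B, C, D versus 8.12, 10.001 and 8.64 CPM in miDrp1KO A, E and F. The ratio of the 7 members to these 3 genes was 2.88, 2.03 and 1.78 in control and 2.43, 3.40 and 3.63 in miDrp1KO libraries. It reflects mostly *Mbp*, *Drp2* and *Prx*, the most abundant of the 7. The genotypes overlap in this ratio through miDrp1KO A and control B. The 3 genes and the ratio were chosen after the data were seen, from a list of genes of Schwann cells of all kinds. Single genes of that list were spread as widely as some members. Between the highest and the lowest library S100b differed 2.38-fold and Foxd3 2.72-fold. Of the 9 tested genes of the list, 6 had a log2 fold change above 0 and 3 below. *Sox10* (−0.11) and *Erbb3* (−0.14) were among those below 0, and *Cdh19* (0.17) was above. The ratio therefore depends on the pick, and other picks were not tested.

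The genes whose pattern was most like the members were sought among 13559 tested genes with a mean of at least 1 CPM, by Pearson's r with the mean standardized log2 CPM of the 7 tested members over the 6 libraries. Among the 10 closest was *Atp2a2*, the calcium pump of slow muscle fibres (r = 0.99), at 88.1, 35.4 and 39.5 CPM in control B, C, D versus 32.3, 129 and 90.0 CPM in miDrp1KO A, E and F. Control B, miDrp1KO E and miDrp1KO F were its highest libraries, as in *Mbp*, *Prx* and *Drp2*. Others among the 10 were *Frem2*, *Rgs5* (a pericyte gene), *Nudt7*, *Slc6a2* (the noradrenaline transporter of sympathetic nerve), *A230072C01Rik*, *Acsf2*, *Slc7a5* and *Fam43a*, with r from 0.98 to 0.99. Over 13559 genes and 6 libraries these values are a description only.

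Because *Atp2a2* came up, the summed level of 6 slow fibre genes (*Myh7*, *Tnnt1*, *Tnni1*, *Myl2*, *Tnnc1* and *Atp2a2*) was set beside the members, after the data were seen and with a slow fibre score known from earlier results of these data. It was 346, 47.8 and 80.0 CPM in control B, C, D versus 47.0, 598 and 478 CPM in miDrp1KO A, E and F. Control B and miDrp1KO E and F were high in this sum and in the summed level of the 7 members without *Pmp22*. An edgeR fit with slow fibre level as a covariate was also added. It gave log2 fold changes of 0.31 for *Mbp*, 0.28 for *Drp2*, 0.23 for *Pmp22* and 0.08 for *Pmp2*. For *Prx* it gave 0.07, for *Gldn* −0.38 and for *Mag* −0.70. The part of slow fibre content in the members' values was not tested.

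**Figure D4:**
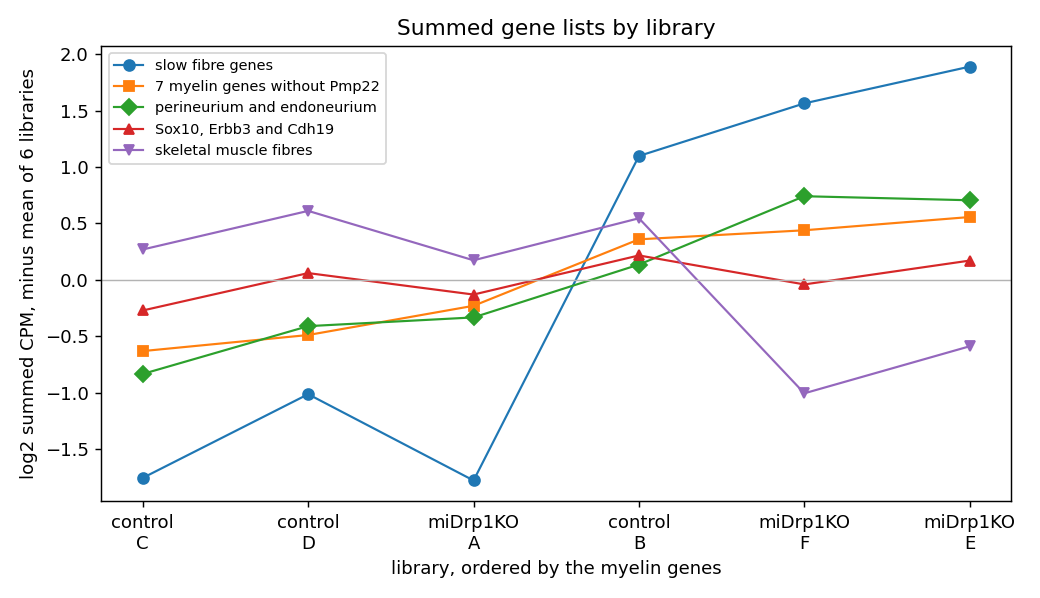
Log2 of the summed CPM of 5 gene lists, minus the mean over the 6 libraries (vertical axis), with libraries ordered by the summed level of the 7 members without *Pmp22*. Slow fibre genes, the 7 myelin genes and the perineurium list are higher in control B and miDrp1KO E and F, from 346 to 598 CPM for the slow fibre genes against 47.0 to 80.0 CPM in the other 3 libraries.

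Other genes of myelin and nerve were described by lists, counted in the same edgeR fit, and none of their genes had an adjusted p under 0.05. Of 8 tested genes of compact myelin, 6 had a log2 fold change above 0 and 2 below, with a median of 0.38. Of 11 genes of non-compact myelin, node and paranode, 10 were above 0 and 1 below (median 0.19). *Kcna1*, a potassium channel of the juxtaparanode, differed by 0.69 on the log2 scale (edgeR, adjusted p = 0.466), and by 0.41 without miDrp1KO E to 1.07 without control B. Of 6 enzymes of myelin lipids, 5 were above 0 (median 0.28), among them *Elovl7*, a fatty acid elongase (0.90), and *Fads1*, a desaturase (0.35). *Elovl7* was at 0.53 without miDrp1KO F, and *Fads1* ran from 0.21 without miDrp1KO E to 0.59 without control C. These 3 lists hold the members themselves or genes of the same membrane, and are not independent of them.

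Of 9 transcription factors of myelinating Schwann cells, 6 were above 0 and 3 below (median 0.10). *Egr2*, the master regulator of myelination, stood at 1.85, 1.02 and 0.966 CPM in control B, C, D versus 1.12, 1.47 and 2.06 CPM in miDrp1KO A, E and F. *Nab2*, a corepressor that binds EGR proteins, had an unadjusted p of 0.0105 from edgeR. It stood at 3.46, 3.13 and 3.21 CPM in control versus 3.99, 5.52 and 7.44 CPM in miDrp1KO libraries (log2 fold change 0.79, edgeR adjusted p = 0.382), and without miDrp1KO F gave 0.57 (edgeR unadjusted p = 0.0501). *Pou3f2*, a POU factor of promyelinating cells, gave 0.68 (edgeR, adjusted p = 0.594).

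Of 11 receptors and signals of Schwann cells, 8 were above 0 and 3 below (median 0.15), and 3 of the 11 had an unadjusted p under 0.05 from edgeR, all higher in miDrp1KO libraries, where 10.9% of all genes tested passed in either direction. *Adam22*, a receptor of LGI proteins, stood at 8.24, 7.65 and 8.86 CPM in control B, C, D versus 10.6, 14.1 and 12.7 CPM in miDrp1KO A, E and F (log2 fold change 0.59, edgeR adjusted p = 0.379). *Lpar1*, a lysophosphatidic acid receptor, stood at 14.6, 15.7 and 16.1 CPM in control versus 17.7, 29.7 and 23.4 CPM in miDrp1KO libraries (0.61, edgeR adjusted p = 0.381). In both, and in the adhesion receptor *Adgrg6* (0.55, edgeR adjusted p = 0.449), all miDrp1KO libraries lay above all control libraries, as in 7.67% of all genes tested. Without miDrp1KO E, *Lpar1* gave 0.41 (edgeR unadjusted p = 0.0565). Other cells of muscle use these receptors too.

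Of 12 genes of inherited demyelinating neuropathy, 5 were above 0 and 7 below (median −0.13). *Sbf1*, a partner of the myotubularin phosphatases that is used in many tissues, had an unadjusted p of 0.00209 from edgeR. It stood at 45.2, 43.4 and 43.2 CPM in control B, C, D versus 30.9, 30.3 and 23.0 CPM in miDrp1KO A, E and F (log2 fold change −0.65, edgeR adjusted p = 0.362). *Arhgef10*, a guanine nucleotide exchange factor, gave 0.27 (edgeR, adjusted p = 0.567). Of 9 genes of Schwann cells of all kinds, 6 were above 0 and 3 below (median 0.08), with *Art3*, which muscle also makes, at −0.27 (−0.12 without miDrp1KO E, −0.42 without miDrp1KO A). Of 10 genes of non-myelinating, immature or repair Schwann cells, 7 were above 0 (median 0.08). *Ngfr*, the low-affinity neurotrophin receptor, was at 0.142, 0.583 and 0.550 CPM in control versus 1.17, 0.931 and 0.768 CPM in miDrp1KO libraries (log2 fold change 1.14, edgeR adjusted p = 0.472, and 0.78 without control B). *Runx2* had 0.41, from 0.25 without control C to 0.71 without control B.

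All 8 genes of perineurium, the sheath around nerve bundles, and endoneurium, the tissue within them, had a log2 fold change above 0 (median 0.66). *Wif1*, a secreted WNT inhibitor, stood at 1.70, 1.82 and 1.48 CPM in control B, C, D versus 1.94, 4.78 and 2.21 CPM in miDrp1KO A, E and F (0.87, edgeR adjusted p = 0.432). Without miDrp1KO E it was 0.33 (edgeR unadjusted p = 0.351). *Itgb4*, an integrin subunit of perineurial and Schwann cells, stood at 7.67, 2.405 and 4.30 CPM in control versus 4.91, 11.8 and 13.0 CPM in miDrp1KO libraries (1.03, edgeR adjusted p = 0.522, from 0.72 without control C to 1.54 without control B). The summed level of this list was 30.4, 15.5 and 20.8 CPM in control B, C, D versus 22.0, 45.1 and 46.3 CPM in miDrp1KO A, E and F. Control B and miDrp1KO E and F were again the 3 highest libraries, and control C the lowest.

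Markers of other cells were summed by library as well. All 6 muscle fibre markers had a log2 fold change below 0 (median −0.68), with sums of 214414 to 271816 CPM in control versus 88592 to 200632 CPM in miDrp1KO libraries, and the highest miDrp1KO library was below the lowest control library. The 6 adipocyte markers were also all below 0 (median −1.12; 186 to 395 CPM in control versus 70.4 to 181 CPM in miDrp1KO libraries). The 5 fibroblast markers were all above 0 (median 0.26; 1101 to 1565 against 1251 to 1940 CPM). Endothelial markers were above 0 in 1 of 5, macrophage markers in 3 of 5 and red blood cell markers in 3 of 4. Endothelial markers summed to 255, 142 and 197 CPM in control B, C, D versus 142, 228 and 153 CPM in miDrp1KO A, E and F. For macrophage markers the sums were 111, 213 and 128 CPM versus 189, 177 and 179 CPM. In neither list were control B and miDrp1KO E and F the 3 highest libraries. The red blood cell markers summed to 272, 61.6 and 47.2 CPM in control B, C, D versus 73.1, 231 and 134 CPM in miDrp1KO A, E and F, with the same 3 libraries highest as for the 7 members without *Pmp22*. Markers of oligodendrocytes summed to 0.632 to 2.23 CPM in any library, 3 of the 6 were at 0 in some library and 1 passed the filter. Their sum was also highest in control B and miDrp1KO E and F. The part of fibre and other cell content in the members' values was not tested.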

How the data were processed

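The authors aligned reads from ribosomal RNA-depleted, stranded libraries to GRCm38, counted them with Rsubread 2.4.2 and deposited the raw counts of each gene, with a file for every library, and per the labels FastQC and DESeq2 1.30.0 were used as well. Libraries were sequenced in 2 pools, and which library was in which pool, the strand setting and the treatment of multi-mapping reads are not given in the sources used here. Groups came from the genotype labels. The main test was edgeR 4.0.16 under R 4.3.3 (TMM, filterByExpr, glmQLFit with robust set, p-values adjusted by Benjamini-Hochberg over 16483 genes, threshold 0.05), on all 6 libraries without covariates. Alternatives were DESeq2 1.42.0, limma 3.58.1 voom, other scalings and filters, and leaving out each replicate. For standardized patterns the prior count in log2 CPM was 2. P-values measure the spread between these libraries.

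The genes named are *Dnm1l*, the members, the 2 genes of lowest p in each list and the 10 genes most like the members, and a few others chosen after their values were seen (*Egr2*, *Adgrg6*, the Schwann cell genes of the ratio and the slow fibre genes). A few genes that this rule names are not reported here. The members and lists were chosen with earlier results of these data known. Exon lengths are from GENCODE M21. The test was checked on simulated counts. Intervals of single counts are exact Poisson intervals and cover counting error only.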

Additional observations from a re-analysis of the deposited data

How the results depend on the processing

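No paired analysis was possible because no letter names a replicate in both genotypes. Added after the data were seen were DESeq2 on all genes with a count and the slow fibre covariate. That covariate was taken up because it follows the members over the libraries, so their lower fold changes with it are no test of slow fibre content. No member had an adjusted p under 0.05 in any alternative that gave it one. Over all genes, 2 did with edgeR, against 55 with DESeq2, 35 with DESeq2 without independent filtering, 82 with DESeq2 on all genes with a count, 1 with limma voom, 8 with no filter on low counts and 5 with the slow fibre covariate; leaving out 1 replicate gave 1 to 7. Genes with an unadjusted p under 0.05 numbered 951 to 3115 when 1 replicate was left out (951 without control D, 3115 without miDrp1KO A). Members with an unadjusted p under 0.05 numbered 1 of 7 with limma voom (12.5% of all genes in that fit), 2 of 7 with upper quartile normalization (11.1%) and 1 of 8 with no filter (9.4%), and 0 to 4 without 1 replicate (4 of 8 without miDrp1KO A, where 17.5% of all genes did, and 3 of 8 without control B, 8.8%). Members below 0 numbered 0 of 7 with upper quartile normalization and 2 of 7 with the slow fibre covariate, and 0 to 2 without 1 replicate. With at least 10 counts in every library the number was 0 of 5, and *Mag* was not among the 5 tested. The members' median ran from 0.08 with the slow fibre covariate to 0.79 without control B. Upper quartile normalization put the median of all genes at 0.11 and no filter at 0.11, against 0.02. Signs turned for *Mag* with limma voom (0.20) and upper quartile normalization (0.0432). They also turned for *Gldn* with limma voom (−0.0128) and the slow fibre covariate (−0.382). With that covariate they turned for *Atp2a2* (−0.012), *Nudt7* (−0.0773) and *Fam43a* (−0.0413) as well. *Atp2a2* is itself part of the covariate, and *Nudt7* and *Fam43a* were picked for following the members, so these turns are no test. Leaving out 1 replicate gave −0.49 to 0.883 for *Mag* (above 0 without control B, and 0.318 without miDrp1KO A), −0.143 (without control D) to 0.733 for *Pmp2*, and −0.637 (without miDrp1KO E) to 0.461 for *Gldn* (−0.0989 without control C). *Dnm1l* passed the threshold with DESeq2 (−0.90, and −0.93 on all genes with a count, adjusted p from 0.00333 to 0.00703 over its 3 forms) and in no other alternative. Of 528 pairs of a named gene and an alternative, 513 kept direction and side of the threshold, with a missing adjusted p counted as not passing. No named gene had an adjusted p under 0.05 in the main fit, so the side could change only by a gene passing. The cause of these shifts was not tested, and low counts limit *Mag*, *Ncmap* and *Pmp2*.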
